A study of Sus scrofa with 20 samples.

Results

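In LLC-PK1 cells, 118 of the 46295 pig transcripts measured by RNA-Seq stood higher after silencing of polycystin-1 than in controls and higher again when MRTF-A was silenced as well. They were selected on these same libraries, so both steps in the siPC1 cells are a description of how the set was made and not a finding. Counts were scaled to the library total (CPM, counts per 1000000), and log2(CPM + 0.5) was averaged within each group. A transcript entered when its mean CPM over all 20 libraries was at least 1.3, siPC1 exceeded siNR by at least 0.6 on this log2 scale, and siPC1+siMRTF-A exceeded siPC1 by at least 0.6. In addition, every siPC1 library had to lie above every siNR library and every siPC1+siMRTF-A library above every siPC1 library. Replicate 1 of siPC1 was left out of these order requirements. The 7 libraries from PC2-silenced cells entered the choice only through the mean CPM, and the addition of siMRTF-A to siPC2 was therefore the comparison tested for the 118 transcripts.

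LLC-PK1 is an epithelial line derived from the pig kidney and used as a model of the proximal tubule. The cells were transfected with small interfering RNAs (siRNAs) and their polyadenylated RNA was sequenced after 48 h. The 4 siNR libraries received a non-related siRNA, 5 siPC1 libraries an siRNA against polycystin-1, and 3 siPC2 libraries one against polycystin-2. A further 4 libraries received siPC1 together with siMRTF-A and 4 received siPC2 together with siMRTF-A. The libraries compared here hold none with siMRTF-A alone, so a difference made by siMRTF-A is known only in cells whose polycystin was also silenced. All are of 1 cell line, and nothing in the labels says that libraries of a group came from separate cultures. The p-values then measure the spread between these libraries, which may be technical.

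Polycystin-1 (PC1) and polycystin-2 (PC2) are membrane proteins that act together at the primary cilium and elsewhere in the tubular cell, and their loss causes autosomal dominant polycystic kidney disease. MRTF-A is a transcriptional coactivator that is held in the cytosol by monomeric actin. When RhoA signalling drives actin into filaments, MRTF-A is released, enters the nucleus and, with serum response factor, activates genes of the cytoskeleton and matrix. The transcripts described here took the direction opposite to that of an activated target in the siPC1 cells, since they were higher with siMRTF-A than without it.

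The files identify transcripts by Ensembl number only, and 0 of the 46295 identifiers could be paired with a gene symbol. Only 2 of the 118 transcripts are therefore given by identifier. All are ordered by the total rise from siNR to siPC1+siMRTF-A in log2(CPM + 0.5), with rank 1 the largest. The added 0.5 shrinks the rise where the control is near 0, and 53 of the 118 had a siNR mean under 1 CPM. The ranks are thus not an order of fold change. The functions of the 118 transcripts, the markers of the tubular epithelium, the silencing of the siRNA targets and the transcripts' sequences were not analysed here. Total estimated counts ranged from 4421001 in siPC1 replicate 1 to 71007731, with a median of 37523941, and siPC2 replicate 2 was the next lowest at 11790504. In siPC1 replicate 1, 6 of the 118 transcripts were listed at 0, and 7 lay outside the order that the other siPC1 libraries kept. Since the RNA is from bulk cultures, a change in RNA per cell and a change in the share of cells that express a transcript cannot be told apart. CPM is not divided by transcript length, so levels are compared within a transcript and not between transcripts.

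The size of the siPC1 step varied widely among the 118 transcripts. The log2 difference between siPC1 and siNR had a median of 2.03, with quartiles of 1.203 and 3.06 and extremes of 0.62 and 6.71. The second step, from siPC1 to siPC1+siMRTF-A, was smaller and more uniform, with a median of 0.92, quartiles of 0.74 and 1.201 and extremes of 0.60 and 2.14. The total rise had a median of 3.07 and ran from 1.302 to 7.70. Among the smallest siPC1 steps inside the threshold were 0.62, 0.64 and 0.65, while the largest outside it, among 11 transcripts that met every other requirement, were 0.58, 0.56 and 0.52. For the siMRTF-A step the smallest inside were 0.604, 0.606 and 0.610 and the largest outside 0.595, 0.594 and 0.592, and 320 transcripts failed on this step alone. Mean CPM had 1.33, 1.37 and 1.38 just inside and 1.298, 1.295 and 1.27 just outside, with 26 transcripts failing on it alone. Another 152 transcripts met both steps and failed an order requirement.

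Per library, the median of the 118 log2 differences to the siNR mean gave 5 levels. The siNR libraries 1 to 4 stood at 0.27, -0.12, -0.18 and 0.01. The siPC1 libraries 1, 2, 3, 4 and A2 stood at 1.90, 2.20, 2.14, 2.22 and 1.90, and the siPC1+siMRTF-A libraries 1 to 4 at 3.07, 3.22, 3.01 and 2.98. These groups were separated by the choice of transcripts. The siPC2 libraries 2, 3 and 4 stood at 1.96, 1.87 and 1.93, and the siPC2+siMRTF-A libraries 1 to 4 at 2.22, 2.47, 2.36 and 2.46. All 4 siPC2+siMRTF-A libraries lay above all 3 siPC2 libraries. They also lay below all 4 siPC1+siMRTF-A libraries, but these were required to be high by the choice, and nothing is read from that order.

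**Figure D1:**
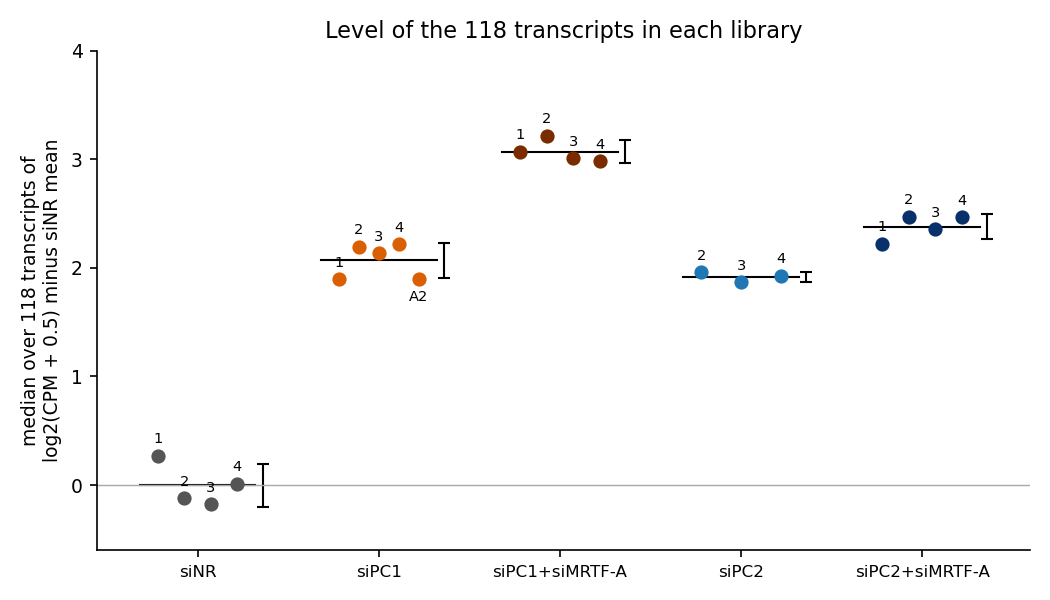
Median over the 118 transcripts of log2(CPM + 0.5) minus the siNR mean (vertical axis) in each of the 20 libraries, by group (horizontal axis), with the replicate name beside each point, the group mean as a line and the SD over libraries as a bar. The siPC2 libraries sit between 1.87 and 1.96 and the siPC2+siMRTF-A libraries between 2.22 and 2.47, while the order of siNR, siPC1 and siPC1+siMRTF-A was fixed by the choice of transcripts.

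In the edgeR quasi-likelihood fit over all 27702 tested transcripts, calls required an adjusted p (Benjamini-Hochberg) no higher than 0.05, a log2 fold change beyond 0.6 and an average of at least 50 normalized counts. All 118 transcripts passed the filter on low counts, and 117 had the mean count. In siPC1 against siNR, 109 of the 118 were called higher, where 15% of all tested transcripts were. In siPC1+siMRTF-A against siPC1, 88 of the 118 were called higher, where 1.18% of all tested transcripts were. Both comparisons chose the transcripts, and nothing is read from these counts.

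With siMRTF-A added to siPC2, 19 of the 118 transcripts (16.1%) were called higher than with siPC2 alone, against 184 of 27702 (0.664%) among all tested. None of the 118 was called lower, against 256 of all tested (0.924%). Among the 20292 transcripts with a mean CPM of at least 1.3, 184 (0.907%) were called higher. At an unadjusted p of up to 0.05 in the edgeR fit, 54 of the 118 were higher and 1 was lower, where 7.53% and 7.34% of all tested transcripts were. DESeq2 called 30 of the 118 higher and 0 lower. The fitted log2 fold change was above 0 for 114 of the 118, compared with 52.3% of all tested. Its median was 0.47 over the 118 and 0.02 over all tested, with extremes of -0.38 and 2.35. A fold threshold inside the test itself (glmTreat) left 2 of the 19 calls, so that for the others the data place the change above 0 but do not place it beyond 0.6.

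In 69 of the 118 transcripts every siPC2+siMRTF-A library lay above every siPC2 library, compared with 11.8% of the 20292 transcripts over the mean CPM of 1.3. In 1 transcript the order was the reverse, compared with 10.2% of those 20292. The 19 called transcripts were all among the 69, leaving 50 that were separated without being called. In the other 45 transcripts with a higher siPC2+siMRTF-A mean, the libraries of the 2 groups overlapped. Of the 4380 other transcripts that met the siPC1 step and its order without being in the set, 16.3% were separated in this way and 47 (1.07%) were called higher. Their median difference between siPC2+siMRTF-A and siPC2 was 0.07 on the log2(CPM + 0.5) scale, and that of the 118 was 0.44. The 152 transcripts that met both steps and failed an order requirement had a similar median of 0.50, with 28 of them (18.4%) separated and 3 called.

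**Figure D2:**
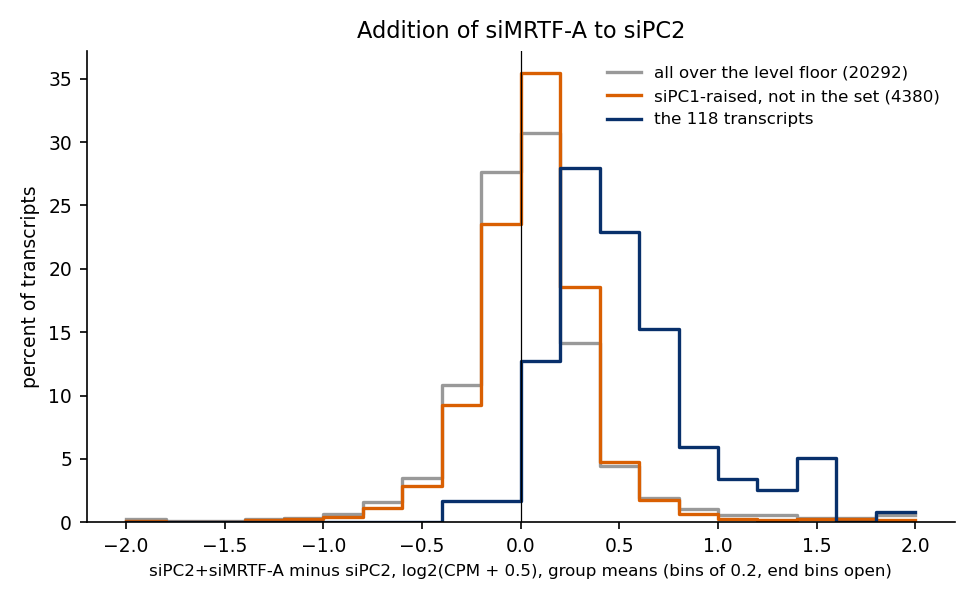
Distribution of the difference between siPC2+siMRTF-A and siPC2 group means in log2(CPM + 0.5) (horizontal axis, bins of 0.2, with larger differences put in the end bins), as a percent of transcripts (vertical axis), for the 118 transcripts, for 4380 other siPC1-raised transcripts and for 20292 transcripts over the level floor. The median lies at 0.44 for the 118, at 0.07 for the other siPC1-raised transcripts and at 0.03 for all.

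The 19 called transcripts had fitted log2 fold changes between 0.63 and 1.61, with a median of 0.96, standard errors between 0.11 and 0.32, and adjusted p-values (edgeR) between 6.55e-07 and 0.0453. The median of the other 99 was 0.42. Their median difference between siPC2 and siNR was 1.34, and 13 of 19 reached 0.6, whereas the others had a median of 2.09 and 92 of 99 reached 0.6. The siPC2 libraries enter both quantities, and this difference was not tested. As a description without a test, calls were made at every control level. They were 5 of 53 transcripts with a siNR mean under 1 CPM, 9 of 42 between 1 and 10 CPM, and 5 of 23 at 10 CPM or more. The shares of all transcripts called at these control levels were not computed, so nothing is read from the counts. The median siPC2+siMRTF-A difference in these 3 classes was 0.48, 0.49 and 0.38.

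ENSSSCT00000012975.5, rank 24, had the largest fold change among the called transcripts. Its CPM was 0.59, 0.17, 0.24 and 0.21 in the siNR libraries 1 to 4, and 2.88, 1.85 and 2.39 in the siPC2 libraries 2, 3 and 4. In the siPC2+siMRTF-A libraries 1 to 4 it was 7.91, 7.94, 6.08 and 7.17. The lowest of these exceeded the highest siPC2 library more than the siPC2 libraries differed among themselves. The fitted log2 fold change was 1.61 (SE 0.32, adjusted p = 0.00548 in edgeR). It was not called when the fold threshold was placed inside the test (adjusted p = 0.180), and its adjusted p ranged from 0.0011 to 0.0481 with 1 library left out. In the siPC1 libraries 1, 2, 3, 4 and A2 the same transcript had 7.01, 3.88, 4.42, 9.11 and 4.43 CPM, and in the siPC1+siMRTF-A libraries 23.1, 17.96, 17.6 and 18.1 CPM.

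Rank 75 had the smallest p. It stood at 11.02, 6.39, 6.21 and 7.49 CPM in siNR, at 10.2, 9.73 and 9.78 in siPC2 and at 31.8, 30.4, 25.8 and 29.0 in siPC2+siMRTF-A. The siPC2 libraries lay inside the siNR range, and all siPC2+siMRTF-A libraries lay far above both. The fitted log2 fold change with siMRTF-A was 1.55 (SE 0.12, adjusted p = 6.55e-07, edgeR). With siPC1 it had 17.5 to 20.6 CPM, and with siPC1+siMRTF-A 47.7 to 54.1 CPM.

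Rank 56 was of the same kind. Its siNR libraries had 6.25, 5.28, 3.40 and 4.98 CPM, its siPC2 libraries 6.15, 6.44 and 4.10 CPM, and its siPC2+siMRTF-A libraries 12.97, 13.7, 12.04 and 15.7 CPM. The siPC2 and siNR libraries overlapped, and the fold change with siMRTF-A was 1.29 (log2, SE 0.18, adjusted p = 0.000319, edgeR). Rank 76 differed in that siPC2 alone was already above siNR. It had 29.3, 21.9 and 23.1 CPM in siPC2, 66.6, 68.0, 63.0 and 71.0 CPM in siPC2+siMRTF-A, and 8.81 to 18.5 CPM in siNR. The fold change with siMRTF-A was 1.44 (log2, SE 0.17, adjusted p = 4.03e-05, edgeR). Rank 106, a transcript of low count, rose from 1.80, 1.35 and 2.15 CPM in siPC2 to 4.81, 4.01, 4.55 and 4.43 CPM with siMRTF-A. Its siPC2 libraries also reached into the region of its siNR libraries, at 1.13 to 1.41 CPM. The fold change was 1.33 (log2, SE 0.20, adjusted p = 0.000470, edgeR).

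**Figure D3:**
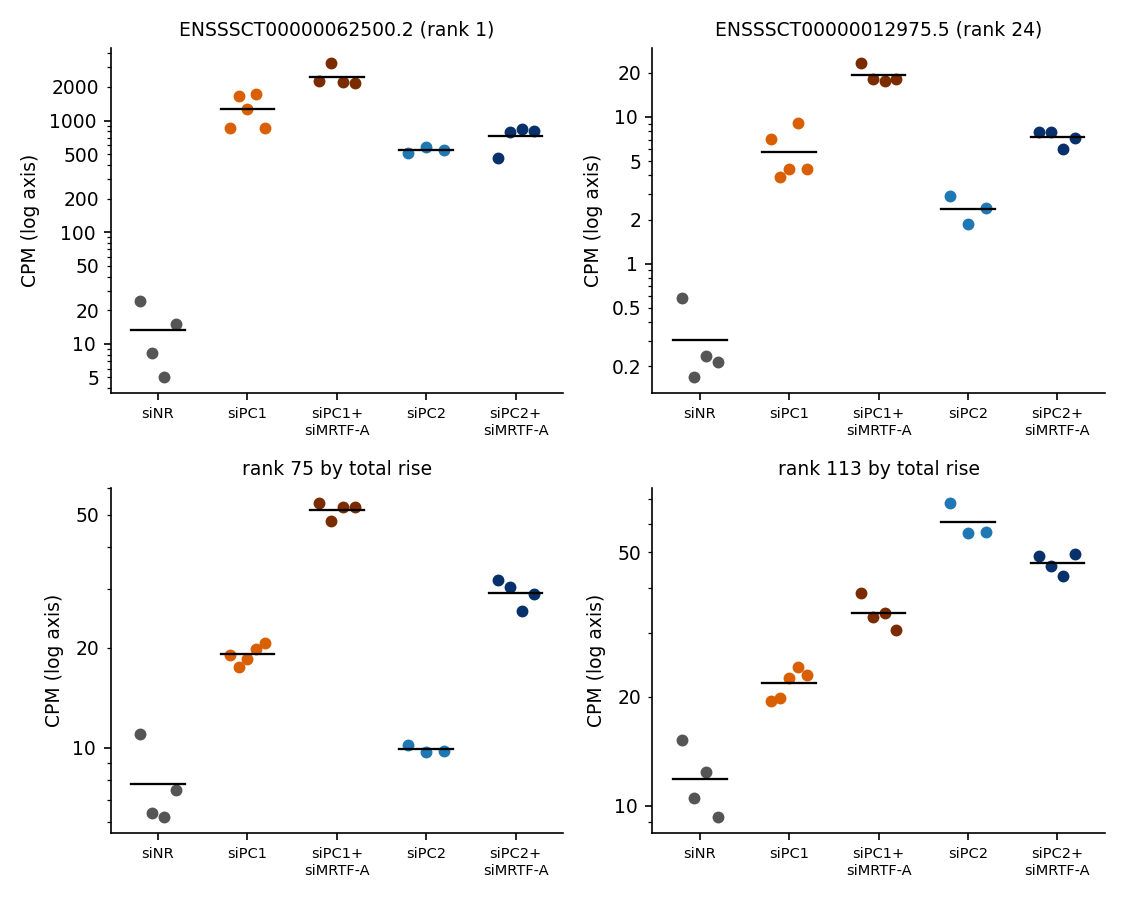
CPM (vertical axes, log scale) of 4 transcripts in each library, by group (horizontal axis), with points in replicate order and a line at the group mean. Rank 1 stood above siNR in every other group with overlapping siPC2 and siPC2+siMRTF-A libraries, ranks 24 and 75 rose on adding siMRTF-A to siPC2, and rank 113 was higher in siPC2 (56.4 to 68.3 CPM) than in siPC2+siMRTF-A (43.0 to 49.6 CPM).

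The transcript with the largest total rise was not called in siPC2 cells. ENSSSCT00000062500.2, rank 1, had 24.4, 8.25, 5.02 and 14.98 CPM in siNR and 863, 1654, 1276, 1734 and 855 CPM in siPC1 libraries 1, 2, 3, 4 and A2. With siPC1+siMRTF-A it had 2242, 3252, 2200 and 2185 CPM. It was not called in siPC1+siMRTF-A against siPC1 either (log2 fold change 0.96, SE 0.34, adjusted p = 0.0988, edgeR). In the siPC2 libraries it stood at 507, 578 and 547 CPM, and in siPC2+siMRTF-A at 465, 784, 843 and 808 CPM. Replicate 1 of siPC2+siMRTF-A lay below all siPC2 libraries while the other 3 lay above them, and the fold change with siMRTF-A was 0.41 (log2, SE 0.39, adjusted p = 0.766, edgeR). The summed CPM of the 118 ran from 601 to 912 in siNR, 3955 to 5633 in siPC1, 8637 to 11015 in siPC1+siMRTF-A, 4104 to 4189 in siPC2 and 4583 to 6271 in siPC2+siMRTF-A. Without rank 1 the last 2 ranges were 3557 to 3654 and 4118 to 5428, and they still did not overlap.

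Of the next 4 by total rise, only rank 4 was called in siPC2 cells. Its siNR libraries stood at 0 in 3 of 4 and at 0.056 CPM in replicate 2. It had 9.88, 9.17 and 11.5 CPM in siPC2 and 15.97, 24.1, 21.9 and 22.7 CPM in siPC2+siMRTF-A, without overlap (log2 fold change 1.05, SE 0.26, adjusted p = 0.0240, edgeR). Rank 2 had 48.01, 33.6 and 37.0 CPM in siPC2 and 35.4, 47.2, 43.2 and 50.4 CPM with siMRTF-A added, so the groups overlapped widely. Rank 3 was not called in siPC1+siMRTF-A against siPC1 either (log2 fold change 0.86, SE 0.30, adjusted p = 0.0939, edgeR). Rank 5 was separated, at 17.6, 16.9 and 18.3 CPM in siPC2 and 18.9, 26.3, 31.96 and 26.6 CPM in siPC2+siMRTF-A, but did not pass the threshold (log2 fold change 0.55, SE 0.21, adjusted p = 0.178, edgeR).

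Ranks 9, 15 and 28 were listed at 0 in all 4 siNR libraries. Against a floor of 3 counts over the 4 siNR libraries together (0.0181 CPM), their pooled siPC1+siMRTF-A levels were at least 1468-fold, 1002-fold and 442-fold higher. The pooled siPC2+siMRTF-A levels were at least 354-fold, 285-fold and 114-fold higher. In 21 of the 118, at least 1 siNR library was at 0. The fold bounds cover counting error only. No value above 0 of ranks 9, 15 and 28 was a whole number, so reads were divided between transcripts by estimation. A value of 0 may come from that division, which the bounds do not cover.

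In siPC2 cells most of the set stood above the controls. Since siNR was also the baseline of the choice, these values are given without a test. The difference between siPC2 and siNR had a median of 1.90, quartiles of 1.13 and 2.89, and extremes of -1.09 and 5.61 on the log2(CPM + 0.5) scale. It reached 0.6 in 105 of the 118, lay between -0.6 and 0.6 in 12 and was below -0.6 in 1. Among the 20292 transcripts over the level floor, 25.2% reached 0.6. Every siPC2 library was above every siNR library in 100 of the 118, where 35.1% of the 20292 were. The mean was higher in siPC2 than in siPC1 for 47 transcripts, whereas that of siPC2+siMRTF-A was higher than that of siPC1+siMRTF-A for 19. The choice set limits on the siPC1 and siPC1+siMRTF-A levels, so nothing is read from these counts.

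**Figure D4:**
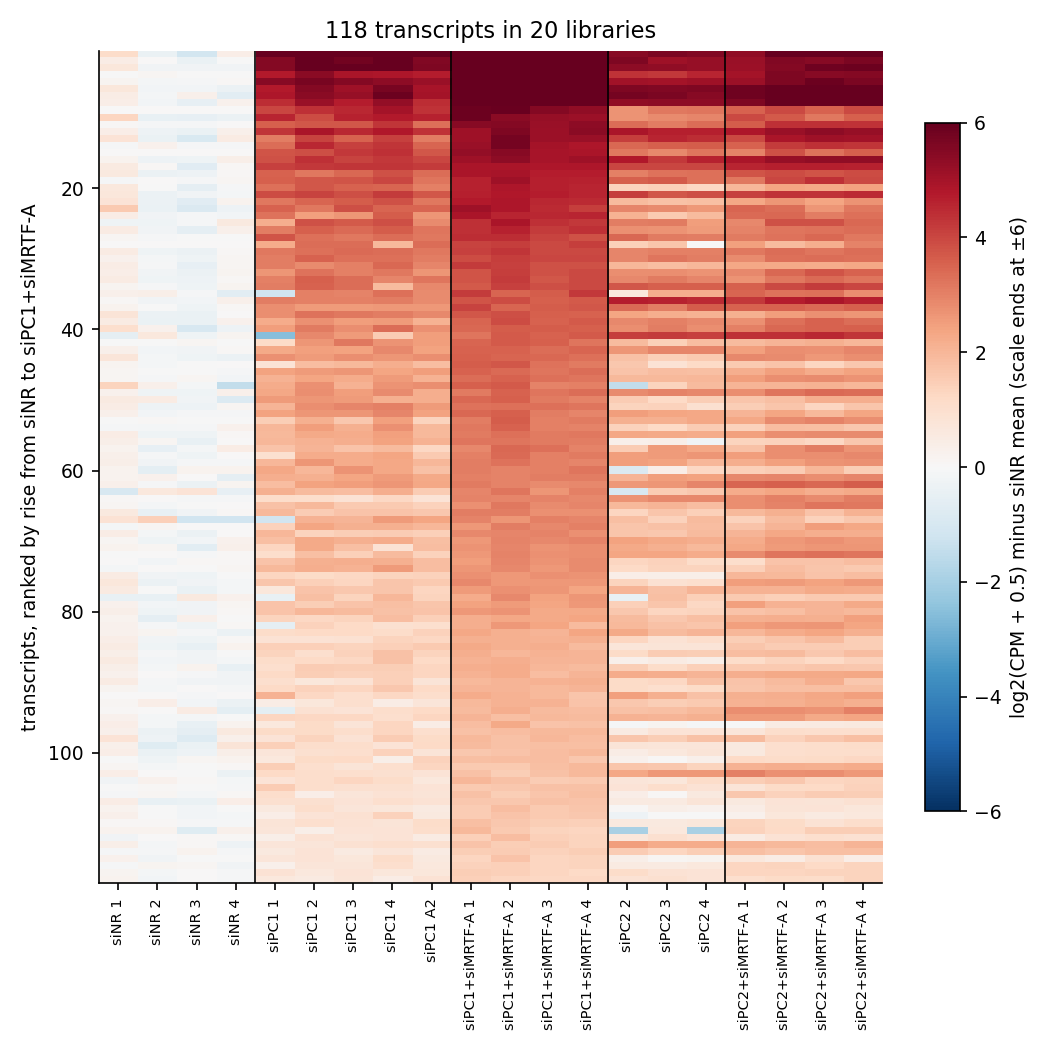
Each of the 118 transcripts (rows, by rank of total rise) in each of the 20 libraries (columns, by group), coloured by log2(CPM + 0.5) minus its siNR mean, with the colour scale ending at ±6. The siPC2 columns are red in most rows, with 105 of 118 transcripts at least 0.6 above siNR. In most rows the siPC2+siMRTF-A columns are paler than the siPC1+siMRTF-A columns, which the choice required to be high.

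The siMRTF-A step was smaller with siPC2 than with siPC1 in 102 of the 118 transcripts. The requirement of a step of at least 0.6 applied to the siPC1 cells only, so this difference was not tested. With siPC2 the step was at least 0.6 in 39 transcripts, at least 1 in 14, between 0 and 0.6 in 75 and negative in 4. Its upper quartile was 0.68 in the 118 and 0.19 in the 20292 transcripts over the level floor, of which 54.7% had a step above 0. Across the 118 transcripts the steps in the 2 backgrounds, which share no library, had a Spearman correlation of 0.26 and a Pearson correlation of 0.21. Transcripts are not independent replicates, and these values are descriptive.

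**Figure D5:**
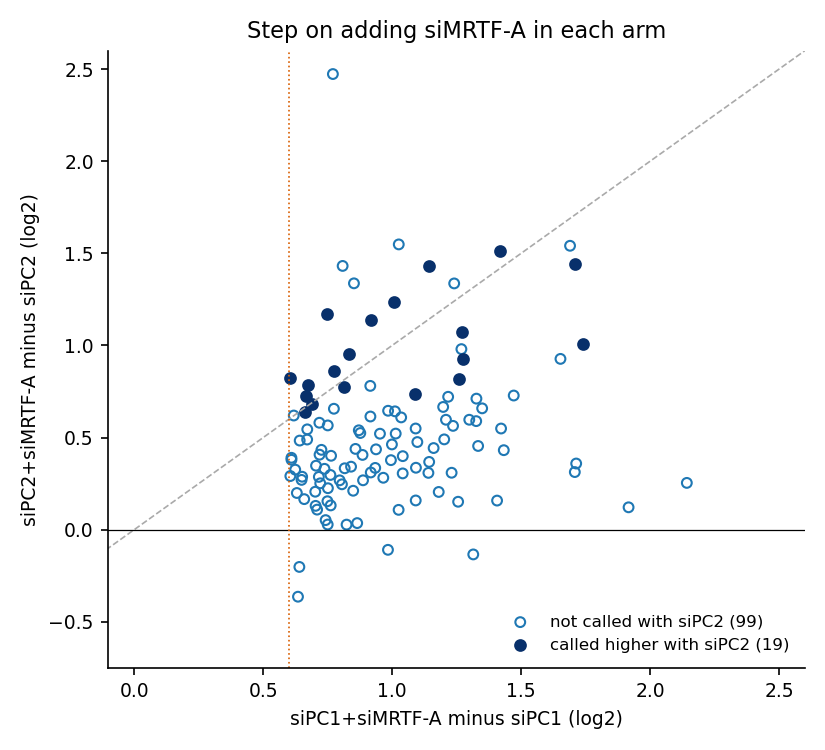
Step on adding siMRTF-A to siPC2 (vertical axis) against that on adding it to siPC1 (horizontal axis), both as differences of group means in log2(CPM + 0.5), for the 118 transcripts. Filled points are the 19 called higher with siPC2, the dashed line marks equal steps, the dotted line the 0.6 required by the choice, and 102 points lie below the dashed line.

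The 5 largest siMRTF-A steps in siPC1 cells, at ranks 41, 64, 4, 13 and 24, were 2.14, 1.92, 1.74, 1.71 and 1.71 on the log2(CPM + 0.5) scale. The same transcripts had steps of 0.25, 0.12, 1.01, 0.36 and 1.44 in siPC2 cells, so that large siPC1 steps went with both small and large siPC2 steps. Rank 41 had 0, 21.5, 16.8, 7.88 and 16.2 CPM in siPC1 libraries 1, 2, 3, 4 and A2, and 27.2, 36.7, 33.3 and 37.3 CPM in siPC1+siMRTF-A. Its step of 2.14 includes the library listed at 0, replicate 1, without which the step was 1.16 and the 20th in size. The edgeR fit gave 1.33 for it in siPC1 cells (log2, SE 0.42, adjusted p = 0.0609), short of the threshold. In siPC2 it already stood at 52.1, 53.5 and 49.6 CPM and in siPC2+siMRTF-A at 61.0, 60.9, 67.5 and 58.0 CPM (log2 fold change 0.25, SE 0.47, adjusted p = 0.938, edgeR). Rank 64 was at 0.45 to 0.79 CPM in siPC1 and 3.45 to 3.80 CPM in siPC1+siMRTF-A. It had 3.05, 3.46 and 3.54 CPM in siPC2 and 3.29, 3.99, 3.43 and 4.06 CPM in siPC2+siMRTF-A, and these groups overlapped. With siPC2 alone, rank 41 was thus above the range of its siPC1+siMRTF-A libraries and rank 64 overlapped that range.

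In 4 transcripts the siPC2+siMRTF-A mean was the lower one. Rank 113 had 68.3, 56.4 and 56.8 CPM in siPC2 and 48.7, 45.9, 43.0 and 49.6 CPM in siPC2+siMRTF-A, with no overlap. Its fitted log2 fold change was -0.38 (SE 0.11, adjusted p = 0.0519, edgeR), short of both thresholds. In siPC1 it had 19.5 to 24.2 CPM and in siPC1+siMRTF-A 30.5 to 38.7 CPM. For ranks 43, 52 and 67 the siPC2 and siPC2+siMRTF-A libraries overlapped, and the fold changes of -0.13, -0.24 and -0.17 were smaller than their standard errors of 0.35, 0.36 and 1.09. Without siPC1 replicate 1 the siMRTF-A steps of ranks 52 and 113 in siPC1 cells were 0.589 and 0.597, under the required 0.6. Those of ranks 43 and 67 were 0.93 and 0.63, the latter down from 1.31. Rank 67 was listed at 0 in that library and was called in neither siPC1 comparison (adjusted p = 0.133 and 0.686, edgeR).

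In 2 transcripts siPC2 was below siNR in the mean. Rank 109 had 24.4, 30.0 and 29.8 CPM in siPC2, within the 26.7 to 37.7 CPM of siNR or just below it, and 37.0, 48.8, 44.8 and 47.9 CPM in siPC2+siMRTF-A (log2 fold change 0.65, SE 0.20, adjusted p = 0.0735, edgeR). Rank 111 was listed at 0 in siPC2 replicates 2 and 4 and at 2.47 CPM in replicate 3, against 4.54, 3.91, 4.89 and 4.86 CPM in siPC2+siMRTF-A. Its fold change of 2.35 was the largest of the 118 and was not called (log2, SE 0.95, adjusted p = 0.224, edgeR). Salmon divides reads shared between transcripts by estimation, and all 20 values of this transcript except the zeros were not whole numbers.

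A library, replicate 1 of siPC2+siMRTF-A, stood lower than the others of its group in these transcripts. It was the lowest of the 4 in 78 of the 118, compared with 25.8% of all transcripts over the level floor, and its total of 48296938 was not low. With this library alone the median step over siPC2 was 0.27, and without it 0.53. Without it the libraries were separated in 97 transcripts, where 14.8% of all were, and edgeR called 21, with 158 over all 27498 tested in that fit. Leaving out a library can only keep or raise the number separated. In the 55 transcripts with siPC2 at least 2 above siNR (log2), the median step was 0.08 with replicate 1 alone and 0.48 without it, and replicate 1 was the lowest in 45. In the other 63 it was 0.43 alone and 0.57 without it. Among the 19 called transcripts it was the lowest in 8. In siNR, replicate 1 was the highest of its group in 80 of the 118, compared with 45.0% of all transcripts over the level floor. In siPC1+siMRTF-A, replicate 2 was the highest in 72 of the 118, compared with 15.2% of all over the floor. The part of these libraries' state in the levels was not tested.

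As a feature the choice did not use, the share of whole-number values was compared, since an estimated count is whole where no read was divided between transcripts. All values above 0 were exactly whole in 7 of the 118 (5.93%), compared with 1.42% of the transcripts over the level floor. No value was whole in 57 (48.3%), compared with 73.2%. The choice itself used the siNR level and favoured low controls. The median siNR mean was 1.27 CPM in the set, 11.3 CPM in the 4380 other siPC1-raised transcripts and 13.9 CPM over the level floor. The part of this difference in the whole-number shares was not tested. In the set the corresponding median was 11.03 CPM in siPC1, 21.6 CPM in siPC1+siMRTF-A, 8.96 CPM in siPC2 and 12.5 CPM in siPC2+siMRTF-A.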

How the data were processed

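RNA-Seq libraries of LLC-PK1 cells were analysed as 5 groups taken from the sample labels. The authors trimmed the reads and used Salmon to obtain estimated counts per transcript from the coding sequences of Sscrofa11.1. They deposited these estimated counts without normalization. The submitters' processing notes name FastQC 0.11.8, Trim Galore 0.6.3, Salmon 0.14.1 and HISAT2. Reads in untranslated regions were not counted, and reads shared by transcripts were divided by estimation. Of 46295 transcripts, 8733 were at 0 throughout.

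The 118 transcripts, the lists and the tests were chosen with earlier results of these data known. Estimated counts were rounded and fitted in R 4.3.3 with edgeR 4.0.16 (filterByExpr by group, TMM factors, 1 quasi-likelihood model of 5 groups and 20 libraries). Adjusted p-values cover all 27702 tested transcripts, and standard errors come from the F statistic. The square root of the median dispersion was 0.359. DESeq2 1.42.0, other filters and scalings, a replicate block and omission of each library were the alternatives. Lists of genes and cell markers were not used because no identifier matched a symbol. Of the 118, the largest called fold change with siPC2 and the largest total rise are given by identifier, and other transcripts by rank. The ranks described beyond these were taken for the largest total rise, level, siMRTF-A step or called fold change, or for a mean in the opposite direction, after the values were seen.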

Additional observations from a re-analysis of the deposited data

Results flagged for a closer look

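In 88 groups of 4 or 5 libraries, covering the 20 transcripts described and the summed and median levels, 12 values stood apart from the rest of their group by Dixon's ratio. Chance flags about 1 in 20 groups, and the transcripts of a library are not independent of each other.

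Replicate 2 of siPC1+siMRTF-A had the highest summed level of the 118 transcripts, 11015 CPM, and the highest level of rank 1, 3252 CPM. Replicate 1 of siPC2+siMRTF-A had the lowest level of rank 1, 465 CPM, and of rank 55, 335 CPM against 421 to 438 CPM in the other 3. Replicate 1 of siNR had the highest level of rank 3, 0.428 CPM where the other 3 were at 0, of rank 24, 0.588 CPM, and of rank 76, 18.5 CPM. Replicate 1 of siPC1+siMRTF-A had the highest level of rank 24, 23.1 CPM, and of rank 76, 85.2 CPM. For rank 4, siNR replicate 2 had 0.0563 CPM where the others were at 0, and siPC1 replicate 2 had 21.4 CPM against 12.8 to 14.7 CPM. For rank 111, siNR replicate 3 had 0.645 CPM, below 1.73 to 1.87 CPM in the others.

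Rank 113 was lower in every siPC2+siMRTF-A library than in every siPC2 library, by a mean of -0.36 on the log2(CPM + 0.5) scale, and higher in every siPC1+siMRTF-A library than in every siPC1 library. The difference between these changes was not tested, because the transcript was chosen on the siPC1 libraries.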

How the results depend on the processing

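For siPC2+siMRTF-A against siPC2, edgeR called 19 of the 118 transcripts higher. DESeq2 called 30, and the test against the fold threshold (glmTreat) called 2. Over all tested transcripts, 184 were called higher and 256 lower. DESeq2 called 297 higher, glmTreat called 12 higher and 41 lower, and without a fold threshold 587 were higher and 661 lower. With 1 library left out, 14 to 21 of the 118 were called higher, and 134 to 206 higher and 208 to 280 lower over all transcripts. Another 8 settings gave 15 to 27 of the 118, among them 27 with the newer quasi-likelihood method, an alternative chosen after seeing the data. None of the 118 was called lower under any setting run.

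The 118 transcripts' median log2 fold change stayed between 0.44 and 0.58. In a fit that took replicate numbers as a block, 22 of the 118 were called higher and 0 lower, with 181 and 270 over all transcripts and a median of 0.53. Rank correlations of deviations between same-numbered siPC2 and siPC2+siMRTF-A libraries (numbers 2, 3 and 4) ran from -0.04 to 0.08, and 1 of 3 siPC2 libraries was most like its own number, so these were not treated as pairs. The replicate 1 libraries of the other 4 groups correlated at 0.07 to 0.38 over 6 pairs, and siPC2 has no replicate 1. With replicate 1 of siNR, siPC1+siMRTF-A and siPC2+siMRTF-A, siPC1 replicate A2 correlated at 0.23, 0.29 and 0.31. For siPC1 replicate 1 these values were 0.07, 0.09 and 0.10. Differently numbered libraries had a mean of -0.01, but siNR 4 and siPC2+siMRTF-A 3 correlated at 0.28. The block by number does not take up such likeness across numbers.

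The rule gave 111 transcripts with TMM-scaled CPM (106 shared with the 118), 105 with a pseudocount of 1, 144 without a minimum CPM and 116 to 146 with 1 library left out. Without siPC1 replicate 1 it gave 119, of which 109 were among the 118. Separated transcripts numbered 62 with TMM-scaled CPM (11% of all over the level floor). With 1 library left out they numbered 69 to 97 (12.8% to 20.4% of all). Both alternatives were chosen after seeing the data. Leaving out a library can only keep or raise the number separated, so the low end of 69 does not bear on its stability. Without siPC2 replicate 2 the separated transcripts numbered 74, where 20.4% of all were separated. Low totals in siPC1 replicate 1 and siPC2 replicate 2 limit what their low counts show.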
